A study of Homo sapiens with 13 samples.

Results

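Peaks of 2 polyamides were compared in H1 cells, a long-established line of human embryonic stem cells. Of 6064 peaks in 4 deposited lists, 3560 belonged to the 2 lists whose names give a compound but no dose, here called the undosed lists. They were all 486 peaks of the undosed compound 2 list and all 3074 peaks of the undosed compound 4 list. Cells were grown in E8 medium on Matrigel and exposed to a compound for 24 h, and bound DNA was captured by COSMIC-seq. The 13 libraries comprised compounds 2 and 4 at 20 nM and at 400 nM, compounds 5 and 6 at 400 nM (2 libraries in each of these 6 groups) and 1 input library. Which of the libraries stand behind the undosed lists, and therefore their dose, is not given in the sources used here, so every comparison below is between lists and not between known doses. Each compound had 1 such list, which leaves no spread between replicates and no test. Lists of genomic intervals carry no expression of marker genes, so the cell type was taken from the labels.

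Polyamides are synthetic chains of N-methylpyrrole and N-methylimidazole rings that lie in the minor groove of DNA. Where rings lie side by side in the groove, as in a folded chain, their pairing sets which bases are read. An imidazole opposite a pyrrole then favours G·C, and a pyrrole opposite a pyrrole accepts A·T or T·A. A chain can fold back on itself through a short aliphatic turn, or lie extended with flexible β-alanine units between rings. In COSMIC-seq each molecule also carries psoralen, which bonds to DNA under ultraviolet light, and biotin, by which the fragments are pulled down and sequenced.

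The structures in the labels show where compounds 2 and 4 differ. Compound 2 has 5 N-methylpyrrole rings, 2 N-methylimidazole rings, 1 chlorothiophene ring and 1 aminobutyric acid unit, the usual turn of a hairpin. Compound 4 has 2 N-methylpyrrole and 3 N-methylimidazole rings, 3 β-alanine units instead of 1, and neither the chlorothiophene nor the aminobutyric unit. Both carry 1 psoralen and 1 biotin. Compounds 5 and 6 carry psoralen and biotin with no such ring, and their libraries were not analysed here.

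The lists differed in length before any position was compared. Compound 4 peaks covered 1622 kb, or 0.0524% of the human build hg19, and compound 2 peaks covered 274 kb, or 0.00885%. Within each list some peaks overlapped one another, so that the 486 compound 2 peaks formed 422 separate regions and the 3074 compound 4 peaks formed 2810. Regions built from 2 or more peaks numbered 59 and 256. Nearly all peaks had the width usual for their list, 616 bp for compound 2 and 570 bp for compound 4. The 142 compound 4 peaks of another width (142 to 725 bp) stood high in their list, with 128 in the top 10% by score, and 5 of the 6 such compound 2 peaks did so too. The authors' score per peak has no stated scale and was used only to rank peaks within their own list.

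The 6 highest-scoring compound 4 peaks had no compound 2 peak called on them. The 3 highest compound 4 peaks lay at 12q23.3 (chr12:108350484-108350811, score 982, and chr12:108350594-108351163, score 933) and 1p36.22 (chr1:9283113-9283837, score 862). Ranks 4 to 6 lay at 12q23.3 again (chr12:108350905-108351247), 1p36.13 (chr1:16463045-16463378) and 20p12.1 (chr20:13829004-13829444). Of the whole compound 4 list 1.82% overlapped a compound 2 peak, and none of these 6 did. The gap from these 6 to the nearest compound 2 peak ran from 2979 kb at 20p12.1 to 28941 kb at 1p36.22. The compound 2 peaks on the far side of those gaps ranked 255 or lower.

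Among the highest compound 2 peaks, by contrast, some did meet a compound 4 peak. The peaks ranked 1 and 3 adjoin at 8p23.1 (chr8:12417572-12417952, score 385, and chr8:12417669-12418284, score 180), and both overlapped 1 compound 4 peak that ranked only 1325. A further peak there, ranked 7 (chr8:12418110-12418342), lay 48 bp from that compound 4 peak. The peak ranked 2, at 20p11.21 (chr20:22989378-22989761, score 323), overlapped a compound 4 peak of rank 27. Ranks 4 to 6 overlapped none: at 17q21.31 (chr17:42053569-42053802) the nearest compound 4 peak was 108 kb away and ranked 73, at 4q31.3 (chr4:152037101-152037716) 338 kb away, and at 19q13.42 (chr19:55414525-55415140) 243 kb away. The top 10 peaks of compound 2 thus included 3 that overlapped some compound 4 peak, where 10.5% of the whole list did. The top 25 of compound 4 included 0 that overlapped any compound 2 peak. Of that whole list 1.82% did, a share at which 25 peaks can readily hold 0. With both lists held to their 100 highest peaks, 1 overlap was left, that at 20p11.21.

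Over the whole lists, a small minority of places was shared. An overlap of at least 1 bp with a compound 4 peak was found for 51 of 486 compound 2 peaks (10.5%, exact 95% interval 7.91 to 13.6%). In the other direction 56 of 3074 compound 4 peaks overlapped a compound 2 peak (1.82%, 1.38 to 2.36%). For scale, an interval of the same width would touch the other list at 0.114% of all start positions on the same chromosomes for compound 2 and at 0.0173% for compound 4. Counting only positions outside the centromeric, variable and stalk bands, where long stretches are unsequenced, these shares were 0.121% and 0.0181%. All such intervals take each peak as an independent count and hold counting error alone. The overlapping peaks formed 60 pairs at 48 loci on 18 chromosomes, and 38 of these loci consisted of 1 peak of each compound.

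Where the compounds met, they met nearly on top of each other. The shared stretch had a median of 528 bp and ran from 100 to 570 bp, and 37 of 60 pairs (61.7%) shared 500 bp or more. In 17 pairs the compound 4 peak lay wholly inside the compound 2 peak. The midpoint of the nearest overlapping compound 4 peak was at a median of 52 bp from the compound 2 midpoint. It was within 100 bp for 40 of 51 peaks (78.4%, exact interval 64.7 to 88.7%) and more than 200 bp away for 5. For the 9 compound 2 peaks that overlapped 2 compound 4 peaks, the nearer midpoint was counted. Counted from compound 4, midpoints were within 100 bp for 40 of 56 peaks (71.4%, 57.8 to 82.7%), with a median of 63 bp. Peaks of the usual widths can overlap with midpoints up to 593 bp apart, and the stretch within 100 bp is 17.0% of that reach. The compound 4 midpoint had the higher coordinate in 29 and the lower in 22. The same measure between the lists of 1 compound gave a like figure. Midpoints lay within 100 bp for 71.5% (63.0 to 79.1%) of the 130 compound 2 peaks that overlapped a 400 nM compound 2 peak, and for 84.6% (82.0 to 86.9%) of the 882 compound 4 peaks that overlapped a 400 nM compound 4 peak.

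**Figure D1:**
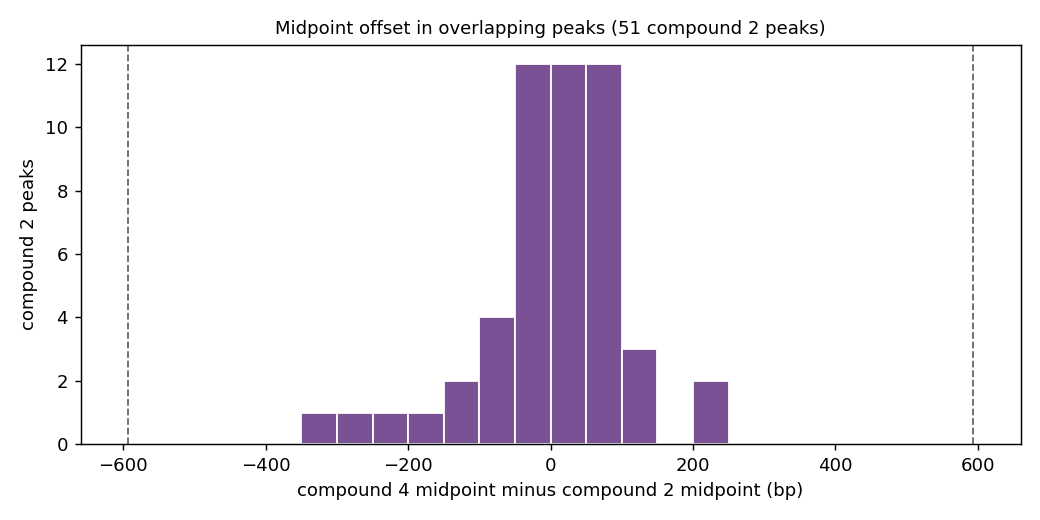
Distance in bp between the midpoint of each of the 51 compound 2 peaks that overlapped a compound 4 peak and the midpoint of the nearest such compound 4 peak (horizontal axis), as a count of compound 2 peaks per bin (vertical axis); dashed lines mark 593 bp, the reach of peaks of the usual widths. Most values crowd around 0, with 40 of 51 within 100 bp.

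Shared compound 2 peaks were more often in the lower than in the upper 50% of their list. Shared compound 4 peaks were few in the first, second and lowest deciles of theirs and were spread over the ranks between. In the compound 2 list they had a median rank of 305 of 486, a percentile of 62.8 counted from the highest score (95% interval of the median 50.6 to 72.4). Besides those at 8p23.1 and 20p11.21, 1 shared peak was in the top 10%, that of rank 19 at 4q25 (chr4:109205144-109205759). Sharing was found for 17 of 243 peaks in the upper and 34 of 243 (14.0%) in the lower 50%, and the Newcombe 95% interval of the difference was 1.53 to 12.6 percentage points. The lowest decile held 9 shared peaks of 48, the most of any decile. The top decile held 4 of 49 and the second 2 of 49, so there was no steady order along the list. In the compound 4 list the median percentile was 52.2 (44.9 to 65.3). Its top deciles were nearly empty of sharing: 1 of 308 and 1 of 307 peaks in the first and second decile overlapped a compound 2 peak, against 54 of 2459 in all other deciles, a split made after the counts were seen and given without a test. The fifth decile held 13 and the lowest only 2, and 26 shared peaks were in the upper and 30 in the lower 50%.

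**Figure D2:**
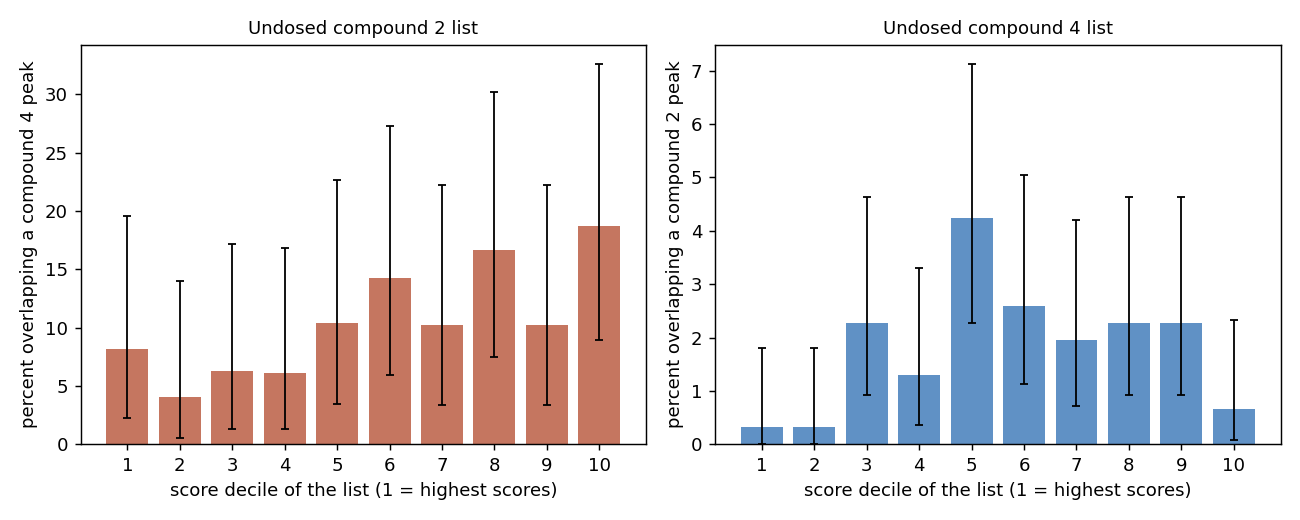
Percent of peaks (vertical axis) that overlapped a peak of the other compound, by score decile within the list (horizontal axis, 1 for the highest scores), for the undosed compound 2 list (left) and the undosed compound 4 list (right, on its own scale); bars are shares of 48 or 49 and of 307 or 308 peaks and error bars are exact 95% intervals. The share was highest in the lowest decile of compound 2 (18.8%) and lowest in the top deciles of compound 4 (0.325% and 0.326%).

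Cutting the compound 4 list to its 486 highest peaks restates its decile counts and is not a separate observation. Only 2 of 486 compound 2 peaks overlapped one of these (0.412%, exact interval 0.0499 to 1.48%, against 0.0154% of positions). The 2588 remaining compound 4 peaks were met by 50 compound 2 peaks (10.3%, 7.73 to 13.3%, against 0.101% of positions). Between the upper 50% of both lists 9 of 243 compound 2 peaks overlapped (3.70%, 1.71 to 6.91%), and between the lower 50% of both 20 of 243 did (8.23%, 5.10 to 12.4%). Either comparison set 243 compound 2 peaks against 1537 compound 4 peaks.

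Ranks at the shared loci did not track each other closely. Taking the best peak of each compound at each of the 48 loci, Spearman's rho between the ranks was 0.17, and 0.11 over 46 loci without those of the compound 2 peaks ranked 1 to 3. Both are descriptions over loci of the same lists. At 8 loci both compounds were in the upper 50% of their lists, at 2 both were in the upper 25%, and at 17 both were in the lower 50%.

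**Figure D3:**
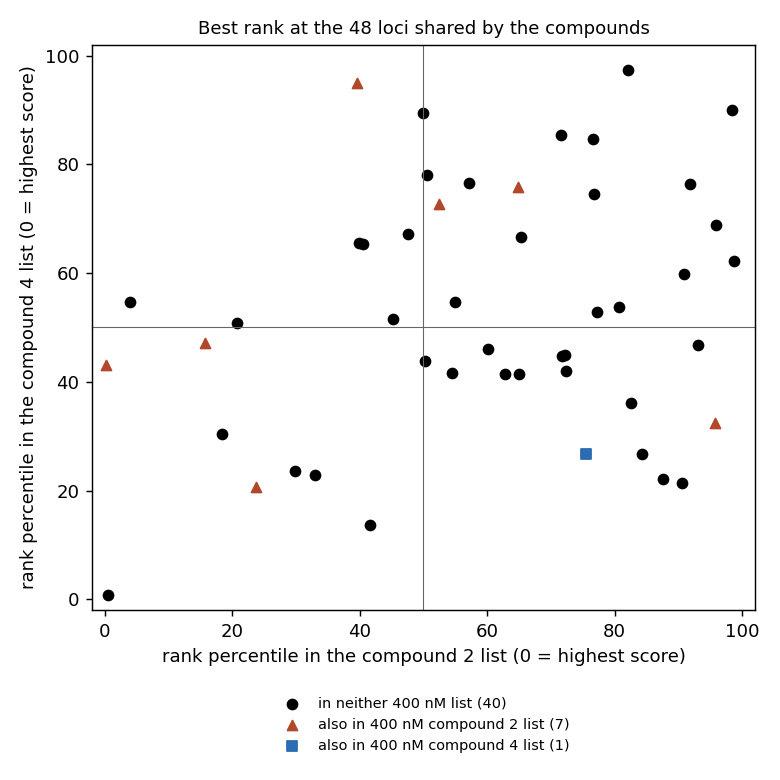
Rank percentile of the best compound 2 peak (horizontal axis) and of the best compound 4 peak (vertical axis) at each of the 48 shared loci, where 0 is the highest score of the list; symbols show whether the locus also overlapped a peak of a 400 nM list. A single locus, at 20p11.21, stood near the top of both lists. No other point was in the top 10% of the compound 4 list, and the rest were scattered with no clear order.

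The loci with the best rank in both lists can be named. By the poorer of its percentiles, 20p11.21 came first, with percentiles of 0.412 in the compound 2 list and 0.878 in the compound 4 list. A wide step followed. At 12q12 (chr12:39750054-39750710) the compound 2 peak ranked 115 and the compound 4 peak 635. At 1q21.3 (chr1:153344302-153345022) the ranks were 145 and 726, at 20q13.2 (chr20:51820352-51820967) 89 and 934, and at 2q24.1 (chr2:156066121-156066778) 160 and 703. These first 5 loci held 1 peak of each compound. The locus at 9q31.3 (chr9:112477843-112478612) joined 1 compound 2 peak of rank 202 to 2 compound 4 peaks, the better ranked 422. The block at 8p23.1 (chr8:12417492-12418342) was seventh, because its single compound 4 peak stood at the percentile 43.1. The last of the first 10 were 20q11.21 (chr20:29635823-29636552, ranks 76 and 1449), 4q13.1 (chr4:65412517-65413136, ranks 244 and 1349) and 1q21.1 (chr1:145018161-145018784, ranks 101 and 1561). Bands 4q13.1 and 10q21.1, named after their values were seen, held 3 shared loci each out of 4 and 3 compound 2 peaks.

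The shared places were mostly absent from the 400 nM lists, but so were most peaks of the undosed lists. The 400 nM list of the same compound was met by 26.7% of undosed compound 2 and 28.7% of undosed compound 4 peaks. Of the 48 loci, 40 overlapped no peak of either 400 nM list, 7 overlapped a 400 nM compound 2 peak, 1 overlapped a 400 nM compound 4 peak (6q16.1, chr6:93483610-93484225) and 0 overlapped both. The contrast between shared and unshared peaks was largest for compound 4. Across that list 28.7% of peaks overlapped a 400 nM compound 4 peak, but of the 56 peaks shared with compound 2 only 1 did (1.79%, exact interval 0.0452 to 9.55%), against 881 of 3018 unshared peaks (29.2%). The difference, shared minus unshared, was -27.4 points (Newcombe interval -29.6 to -19.6). Overlap with the 400 nM list was concentrated at high scores, from 99.4% of the top decile of undosed compound 4 peaks to 6.19% of the lowest. Unshared compound 4 peaks weighted to the score deciles of the shared ones gave 16.9%, above the upper bound for the shared peaks.

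With the 400 nM compound 2 list the order was turned round. It was met by 0.520% of all undosed compound 4 peaks, namely by 7 of the 56 shared peaks (12.5%, 5.18 to 24.1%) and by 9 of the 3018 unshared peaks (0.298%, 0.136 to 0.565%). Shared compound 4 peaks were chosen for lying on an undosed compound 2 peak, and 26.7% of those peaks overlapped the 400 nM compound 2 list, so their higher share was set in part by the choice and is given as a description. Among undosed compound 2 peaks, 9 of 51 shared peaks did so (17.6%, 8.40 to 30.9%) and 121 of 435 unshared peaks (27.8%, 23.7 to 32.3%). That difference of -10.2 points had a Newcombe interval that included 0 (-19.4 to 3.06), and the decile-weighted unshared share was 23.6%. The 400 nM compound 4 list was met by 0.206% of undosed compound 2 peaks, which is the 1 peak at 6q16.1. The 435 compound 2 peaks not shared with compound 4 gave 0 overlaps, which allows a share of up to 0.690%. Whether the undosed lists drew on the 400 nM libraries is not stated, so overlap of a compound with its own 400 nM list may hold partly by construction.

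Beyond direct overlap, the gaps between the compounds stood much nearer to what position along the chromosomes gave, with small differences in several steps of distance. The median gap from a compound 2 peak to the nearest compound 4 peak was 255 kb (95% interval of the median 225 to 299 kb) over 486 peaks, with quartiles of 61.8 and 618 kb. Among the 435 compound 2 peaks with no overlap it was 321 kb. From the more numerous compound 4 peaks to the nearest compound 2 peak it was 2399 kb (2284 to 2526 kb) over 3058 peaks, and the 16 compound 4 peaks on chromosome Y had no compound 2 peak on their chromosome. Against the 486 highest compound 4 peaks, compound 2 peaks had a median gap of 2395 kb.

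Just outside overlap, up to 1 kb, few peaks were found, and the share of positions there was as small. A single compound 2 peak had a gap above 0 and up to 1 kb (0.206%, exact interval 0.00521 to 1.14%), where positions gave 0.191%, and that peak was the one ranked 7 in the 8p23.1 block. From 1 to 10 kb there were 14 compound 2 peaks (2.88%, 1.58 to 4.79%, positions 1.69%), and from 10 to 100 kb 80 (16.5%, 13.3 to 20.1%, positions 15.0%). From 100 kb to 1 Mb there were 273 (56.2%, 51.6 to 60.6%, positions 60.7%). Of these compound 2 steps, the last alone had an interval that lay wholly to one side of the share of positions, below it. Shares are of all 486 peaks, of which overlap already took 10.5% against 0.114% of positions, so less was left for wider steps. Counted from compound 4, 0 of 3074 peaks had a gap above 0 and up to 1 kb, which allows a share of up to 0.0976% where positions gave 0.0283%. Gaps from 1 to 10 kb were found for 15 (0.488%, 0.273 to 0.804%), above the 0.252% of positions, and gaps from 10 to 100 kb for 93 (3.03%, 2.45 to 3.69%, positions 2.47%). From 100 kb to 1 Mb there were 699 (22.7%, 21.3 to 24.3%), above the 20.8% of positions. Outside centromeric, variable and stalk bands, positions gave 0.265%, 2.60% and 21.8% for the compound 4 steps from 1 kb to 1 Mb. Against these shares the 1 to 10 kb step alone stayed above, narrowly. After overlapping peaks of a list were merged, the 1 to 10 kb step held 12 of 422 compound 2 regions (2.84%, 1.48 to 4.91%, positions 1.70%) and 15 of 2810 compound 4 regions (0.534%, 0.299 to 0.879%, positions 0.253%). In merged compound 4 regions the next steps held 3.10% (2.49 to 3.81%, positions 2.47%) and 22.7% (21.1 to 24.3%, positions 20.8%). These 3 steps lay above the share of all positions, the latter pair narrowly. For merged regions, positions outside centromeric, variable and stalk bands were not counted separately. In all, 13.6% of compound 2 peaks lay within 10 kb of a compound 4 peak (positions 2.00%) and 86.2% within 1 Mb (82.8 to 89.2%, positions 77.8%). For compound 4 the share within 1 Mb of a compound 2 peak was 28.1% (26.5 to 29.7%, positions 23.5%). Outside centromeric, variable and stalk bands, positions gave 82.3% and 24.7% for these shares within 1 Mb.

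**Figure D4:**
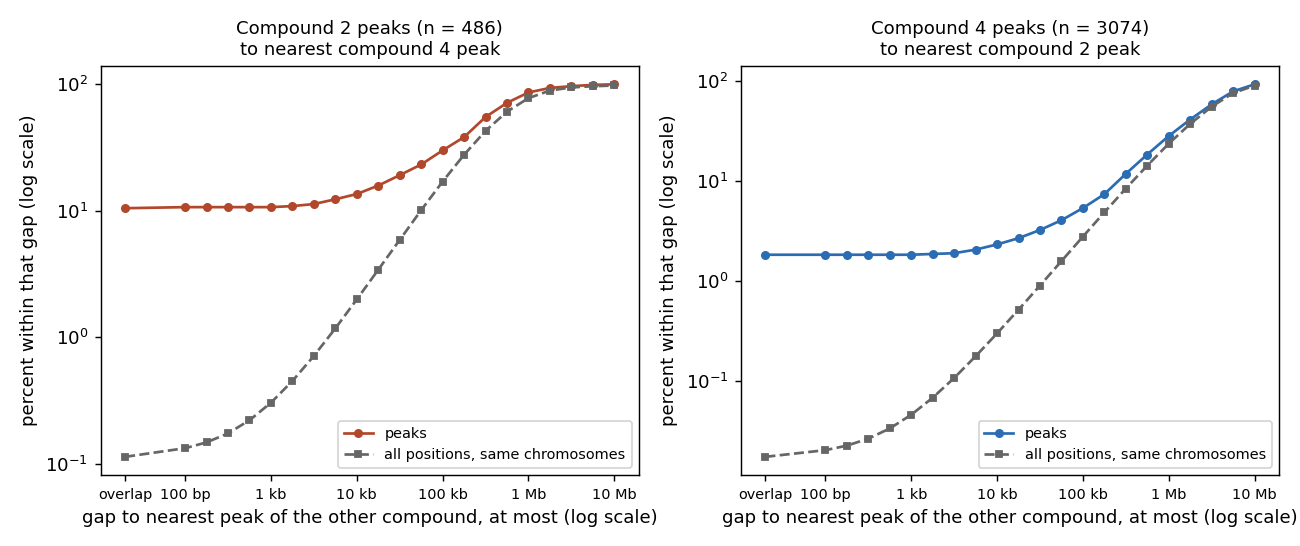
Percent of peaks (vertical axis, log scale) whose nearest peak of the other compound lay within a given gap (horizontal axis, log scale, direct overlap placed at the left), from compound 2 to compound 4 (left) and from compound 4 to compound 2 (right), with the percent of all start positions on the same chromosomes as a dashed line. The curves of peaks are flat from overlap (10.5% and 1.82%) to 1 kb and approach the dashed lines at wider gaps, with 86.2% against 77.8% and 28.1% against 23.5% at 1 Mb.

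Of the 15 compound 2 peaks within 10 kb that did not overlap, several fell in the same places. Band 1q21.1 had 3 of them, ranked 88, 252 and 391 (chr1:145071319-145071934, chr1:145116451-145117066 and chr1:145081677-145082292), with gaps of 4356, 6271 and 6502 bp, besides the shared locus named above. At 6p22.2 a pair of adjoining peaks ranked 72 and 471 stood 7614 and 7817 bp from a compound 4 peak of rank 569. At 3q13.33 another pair, ranked 155 and 228, stood 5285 and 5049 bp from a compound 4 peak of rank 2281. At 1p32.2 the peaks ranked 360 and 483 were 2384 and 3751 bp from a compound 4 peak of rank 2604. These were named after their values were seen.

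On lists of equal length the nearest neighbour belonged to either compound about equally often. With compound 4 cut to its 422 highest regions, the nearest region was another compound 2 region for 228 of 422 compound 2 regions (54.0%, exact interval 49.1 to 58.9%) and a compound 4 region for 194. Seen from those compound 4 regions, 229 of 422 (54.3%, 49.4 to 59.1%) had a region of compound 4 nearest.

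Counts per chromosome ran nearly in parallel. Both compounds had most peaks on chromosome 1 (48 for compound 2 and 282 for compound 4). The Newcombe interval of the difference in share excluded 0 on 1 of 24 chromosomes, without adjustment for that number. This was chromosome 8, with 17 of 486 compound 2 peaks (3.50%) and 184 of 3074 compound 4 peaks (5.99%), a difference of -2.49 points (interval -4.07 to -0.309). In merged regions the shares were 2.84% and 6.09%. Compound 4 had 10.8 times as many peaks as compound 2 on chromosome 8, and between 3 (chromosome 21) and 10.1 (chromosome 16) times as many on every other chromosome except Y. Chromosome X was sparse for both, at 0.0708 and 0.322 peaks per Mb, and had no shared locus. On chromosome Y compound 4 had 16 peaks (0.520%) and compound 2 had 0 of 486, which allows a share of up to 0.617%, so a difference was not detectable. Chromosome 20 gave the most shared peaks, 6 of its 14 compound 2 peaks, with chromosomes 1, 2 and 4 next at 5 each. The share of compound 2 peaks on chromosome 20 (2.88%) did not differ detectably from that of compound 4 (2.15%, difference 0.734 points, interval -0.559 to 2.68).

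The densest bands of the lists were not the same. The 5 bands with the most compound 2 peaks per Mb were 11q22.2 (3 peaks in 1 region), 10p11.1 (6 peaks in 5 regions), 5p14.2 (3), 1q24.1 (3 in 1 region) and 5q13.1 (3 in 2 regions). Compound 4 had 0, 0, 1, 3 and 5 peaks in these bands. Its own densest bands were 13q14.12, with 3 peaks and none of compound 2, and 15q22.1, which is short and held 1. Band 7p12.2 held 6 and 1q42.3 held 7, again with none of compound 2, and 10p12.2 held 7 beside 1 compound 2 peak. Of 862 bands, 292 held a compound 2 peak and 690 a compound 4 peak, 269 held both and 23 held compound 2 alone. Within 5 Mb of a centromere lay 52 compound 2 peaks (10.7%) and 202 compound 4 peaks (6.57%), a difference of 4.13 points (Newcombe interval 1.51 to 7.30), which was 3.31 points (0.655 to 6.62) in merged regions. These stretches make up 11.1% of the hg19 length, unsequenced parts included, so compound 2 (exact interval 8.09 to 13.8%) was at that share and compound 4 (5.72 to 7.51%) below it.

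Giemsa staining divides chromosomes into pale bands, which tend to be gene-rich and GC-rich, and dark bands, which tend to be gene-poor and AT-rich. Dark bands here are those of the staining classes 75 and 100 in the hg19 band table, which make up 31.8% of the stained and unstained band length (centromeric, variable and stalk bands left out). Compound 2 peaks were more often in dark bands than compound 4 peaks, with 193 of 472 (40.9%, exact interval 36.4 to 45.5%) against 1085 of 3046 (35.6%, 33.9 to 37.4%). The difference was 5.27 points (Newcombe interval 0.598 to 10.1), and 5.60 points (0.602 to 10.7) in merged regions. The 486 highest compound 4 peaks had the lowest share, 142 of 485 (29.3%, 25.3 to 33.5%), which was 11.6 points (5.57 to 17.5) below the compound 2 list. That difference sets the highest scores of 1 list against all scores of the other, so the sets are unlike. In the compound 4 list the share was 31.2% in the top 25% by score and 37.6%, 37.9% and 35.8% in the following steps of 25%. In the compound 2 list it was 36.4%, 39.0%, 43.2% and 44.9% over the same steps from the top, with exact intervals that overlapped. Between the top 25% of each list the exact intervals overlapped too. They were 27.8 to 45.8% for compound 2 and 27.9 to 34.6% for compound 4.

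Peaks shared by the compounds had the highest share in dark bands, through the darkest class alone. Class 100 held 35.3% of shared compound 2 and 35.7% of shared compound 4 peaks, against 21.2% and 18.3% of all peaks of those lists. Class 75 held 15.7% and 14.3% of shared peaks, against 18.5% and 17.0% of all. Over both classes, 28 of 55 shared compound 4 peaks were in dark bands (50.9%, 37.1 to 64.6%), against 1057 of 2991 unshared (35.3%), a difference of 15.6 points (Newcombe interval 2.62 to 28.4). Without the 486 highest compound 4 peaks in either set, the difference was 16.3 points (3.04 to 29.3). Among shared compound 2 peaks 26 of 50 were (52.0%, 37.4 to 66.3%), against 167 of 422 unshared (39.6%), a difference of 12.4 points whose interval included 0 (-1.87 to 26.4). Because both sets describe the same 48 loci, they are not separate observations. The base composition of the peaks themselves was not measured, since a genome of the build was not used here.

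**Figure D5:**
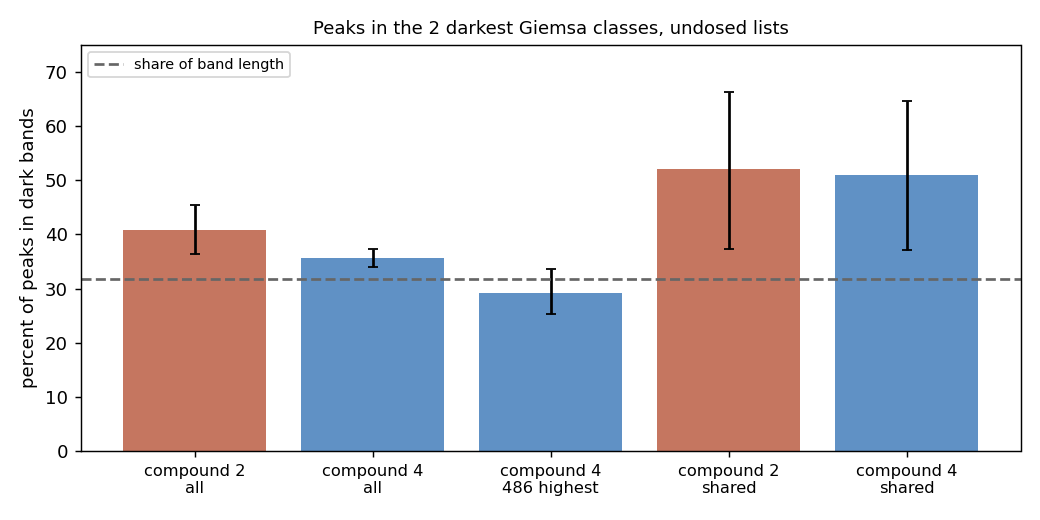
Percent of peaks (vertical axis, from 0) with a midpoint in the 2 darkest Giemsa classes for all peaks of each undosed list, the 486 highest compound 4 peaks and the peaks of each compound that overlapped the other; error bars are exact 95% intervals and the dashed line is the share of band length, 31.8%. The shared peaks stand highest (52.0% and 50.9%) and the 486 highest compound 4 peaks lowest (29.3%).

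At the scale of 1 Mb windows the lists went together only slightly. Outside centromeric, variable and stalk bands, 247 of 368 windows with a compound 2 region also held a compound 4 region (67.1%, exact interval 62.1 to 71.9%), against 1429 of 2469 windows without one (57.9%, 55.9 to 59.8%). Without the shared regions these shares were 62.5% (57.1 to 67.8%) of 331 windows and 58.0% (56.1 to 60.0%) of 2506, with overlapping intervals.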

How the data were processed

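Reads were handled with CASAVA 1.8.2, Bowtie 1.0 and an unversioned HOMER on hg19, per the submitters' processing notes. What each tool did, the threshold for peaks, the part of the input and any pooling of libraries were not given in the sources used here. Each list, as deposited by the authors, has 4 columns with chromosome, start, end and a score of unstated scale. Starts, taken as 0-based, were converted to 1-based positions. Read depth is unknown from the lists.

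Groups of libraries came from sample titles, and neither undosed list was assigned to a group. Nothing in the labels says whether libraries came from separate cultures. Overlap meant at least 1 bp and a gap was measured between edges. Shares of positions were computed over all start positions without random draws. Intervals are exact (Clopper-Pearson) or, for differences, Newcombe 95% intervals. Those of medians come from binomial order statistics, and a count of 0 was given a limit of 3 counts. This limit is lower than the upper end of the exact interval. For 0 of 435 unshared compound 2 peaks they were 0.690% and 0.844%. Hg19 lengths came from GenomeInfoDb 1.38.1, bands from circlize 0.4.16 and ring counts from rdkit 2024.09.2. Python 3.11.15, numpy 2.4.6, scipy 1.17.1, pandas 2.3.3, statsmodels 0.14.6 and matplotlib 3.10.9 were used. Overlaps, gaps and shares of positions were checked on simulated lists.

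Named peaks were the 6 highest of each list, the first 10 shared loci by the poorer percentile and the 5 densest bands. The members, lists and measures were chosen with earlier results of these data known. Comparisons with the 400 nM lists, midpoint offsets, dark bands, windows and the split of deciles 1 and 2 from the rest were added after the data were seen. Placement relative to genes and motif content were planned but not run, as an hg19 genome and annotation were not used here.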

Additional observations from a re-analysis of the deposited data

How the results depend on the processing

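The alternatives were an overlap of 50% of both peaks, the upper 50% of each list, lists of equal length, midpoints at most 1 kb apart, merged peaks, lists without chromosomes X and Y, and distances without overlapping peaks. Of 27 values recomputed, 19 stayed within the 95% interval of the reported one and 8 moved outside it, all under shorter lists or without the overlapping peaks. In the upper 50% of each list the share of overlapping peaks was 3.70% for compound 2 and 0.520% for compound 4, and the median gaps were 519 kb from compound 2 and 4980 kb from compound 4. With the compound 4 list cut to 486 peaks both shares were 0.412% and the gap from compound 2 was 2395 kb. Without overlapping peaks that gap was 321 kb. The share of positions for compound 2 was 0.0551% in the upper 50% and 0.0154% with equal lengths, against 0.114% with whole lists, and the cause of the lower overlap was not tested. Merging and the 50% overlap for shared peaks were also tried, after the data were seen, for dark bands and for the 400 nM comparison. Alternatives for motifs and genes were not run, as an hg19 genome and annotation were not used here. No paired analysis was possible because each compound had a single undosed list and no value per library. Neighbouring peaks are not independent, so all intervals over peaks may be too narrow.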
